A study of Homo sapiens with 8 samples.

Results

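The genes described here encode the proteins of the cytosolic ribosome. They were chosen by symbol from GENCODE release 29: protein-coding genes named RPL or RPS with a number and an optional A, L or X suffix, together with RPLP0, RPLP1, RPLP2 and RPSA. Kinase genes named RPS6K, Y-linked RPS4Y genes and pseudogenes were left out. This rule found 81 of the 58735 genes in the deposited count table, 49 of the large subunit and 32 of the small subunit.

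Expression was measured by RNA-seq in SRA01/04 cells, an immortalised line of human lens epithelial cells. The 4 shSmurf1 libraries, labelled as Smurf1 knockdown, came from cells with a short hairpin RNA against SMURF1, which encodes a ubiquitin ligase of the HECT class known to target SMAD proteins and receptors of the TGF-β family. The 4 shControl libraries came from cells with a control hairpin, whose genotype is labelled WT. Both groups received TGF-β2, a cytokine that promotes fibrotic change of the lens epithelium, at 20 ng/ml for 48 h, so the comparison has no arm free of TGF-β2. The labels name 1 hairpin against SMURF1 and do not say how many clones the lines hold. The libraries are called biological replicates, but separate cultures are not stated, so the p-values cover the spread among these libraries, which may be technical.

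A ribosome has a small subunit, which reads the messenger RNA, and a large subunit, which joins amino acids, and each protein is incorporated in a fixed number of copies. Many ribosomal protein transcripts begin with a run of pyrimidines at the cap, the 5′ terminal oligopyrimidine (TOP) tract, through which mTORC1 and the RNA-binding protein LARP1 control their translation. Assembly takes place mostly in the nucleolus, where RNA polymerase I makes the ribosomal RNA.

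SMURF1 was at 50.4 to 51.4 CPM in the 4 shSmurf1 libraries, against 85.8 to 93.3 CPM in the 4 shControl libraries, so the groups did not overlap (log2 fold change −0.80 ± 0.055 SE, adjusted p = 2.86e-09; adjusted p printed here are from edgeR's quasi-likelihood test and the Benjamini-Hochberg method). CPM are counts relative to the TMM-scaled library size. Library totals ran from 14688651 to 16789144 counts in shSmurf1 and from 15000813 to 17030394 in shControl. Of 10 lens epithelium markers, SOX1 was at 0 in all libraries, FOXE3, PITX3, MAF, CRYAA, CRYAB, CDH1 and AQP1 were at or near 0, and PAX6 averaged 34.0 CPM in shSmurf1 and 33.3 CPM in shControl. The summed level of that list was 76.5 to 84.1 CPM in shSmurf1 and 110 to 118 CPM in shControl, with the gap junction gene GJA1 lower in shSmurf1. The 6 mesenchymal markers, led by FN1, VIM and COL1A1, summed to 8039 to 9060 CPM in shSmurf1 and 8166 to 9047 CPM in shControl. Of the 6, FN1 (log2 fold change 0.21) and PDGFRB (0.38) were higher, and COL1A2 (−1.01) and VIM (−0.31) were lower. Lens fibre markers summed to 6.32 to 8.01 CPM in shSmurf1 and 6.67 to 9.27 CPM in shControl. Blood cell markers summed to 11.6 to 14.2 CPM in shSmurf1 and 6.27 to 8.72 CPM in shControl, nearly all of it CD14, with PTPRC, HBB and HBA1 at or near 0, and markers of endothelium, keratinocytes and pigment cells each summed to at most 4.23 CPM. shSmurf1 replicate 3 stood apart from the other libraries. In pairs of libraries of 1 group, the chi-square per degree of freedom over genes was 9.86 to 13.1 with this library and 2.60 to 4.08 without it. Its trend with GC content ran against that of the other shSmurf1 libraries. At 40% GC, the fitted deviation from a gene's mean over libraries (log2 scale) was 0.11 in this library, −0.11 to −0.062 in the other 3 shSmurf1 libraries, and 0.027 to 0.055 in shControl. Averaged over the members the trend was 0.0012 to 0.0091 in all 8 libraries.

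Part of the ribosomal protein genes of both subunits fell in shSmurf1, by small amounts, and none rose. Of the 78 members with enough counts to test, 28 fell and 0 rose at an adjusted p under 0.05, which is 35.9% of them, while 12.2% of all 15647 genes tested were lower and 10.3% were higher (edgeR quasi-likelihood test, p-values adjusted over all genes). The median SE of the log2 fold change was 0.057 over the members and 0.093 over all genes tested. Smaller changes could thus pass in the members, and the shares do not compare sizes of change. The log2 fold change was below zero in 75 of the 78 members, beside 7599 of the 15647 genes tested. Most members had the same highest and lowest shControl library, so counts over members are not counts of separate observations. The median log2 fold change was −0.14 over the 78 members, or 91.0% of control, and 0.01 over all genes. RPL5 fell to 77.0% of control and RPL11 to 81.2%. At an unadjusted p under 0.05 there were 45 members lower and 0 higher, and DESeq2 counted 29 lower and 0 higher at an adjusted p under 0.05, with 12.5% of all genes lower and 10.2% higher. Values are relative to the other RNA of each library, and fewer cells of one kind or less RNA per cell cannot be told apart.

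The count of lower members moved with the GC trend and with single libraries. After removal of each library's GC trend it was 42, with 15.1% of all genes lower. Without shSmurf1 replicate 3 it was 53, with 17.3% of all genes lower. Without shControl replicate 1 it was 17, with 9.94% of all genes lower, and without shSmurf1 replicate 2 it was 18, with 9.78%. These libraries lie at the ends of their groups for many members: shSmurf1 replicate 3 was the highest shSmurf1 library in 45 members and shSmurf1 replicate 2 the lowest in 59, and shControl replicate 1 was the highest shControl library in 67 and shControl replicate 3 the lowest in 62. Under 23 other settings, 12 members were lower at an adjusted p under 0.05 in every one, among them RPL3, RPL7A, RPL8, RPL10, RPL13A, RPLP0, RPLP1, RPS3, RPS4X, RPS12 and RPS23. In single settings 5.71% to 17.3% of all genes were lower, and the share lower in every setting is not given here.

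In 25 of the 78 members every shSmurf1 library was below every shControl library, and in 0 every one was above. The same held for 13.1% of all genes tested in the lower direction and 10.6% in the higher. Of the 25, 21 also passed the test. Among those that did not were RPS9, RPS14 and RPS16. RPS14 and RPS16 had log2 fold changes of −0.14 ± 0.051 SE and −0.13 ± 0.049 SE (edgeR adjusted p = 0.0537 and 0.0547).

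**Figure D1:**
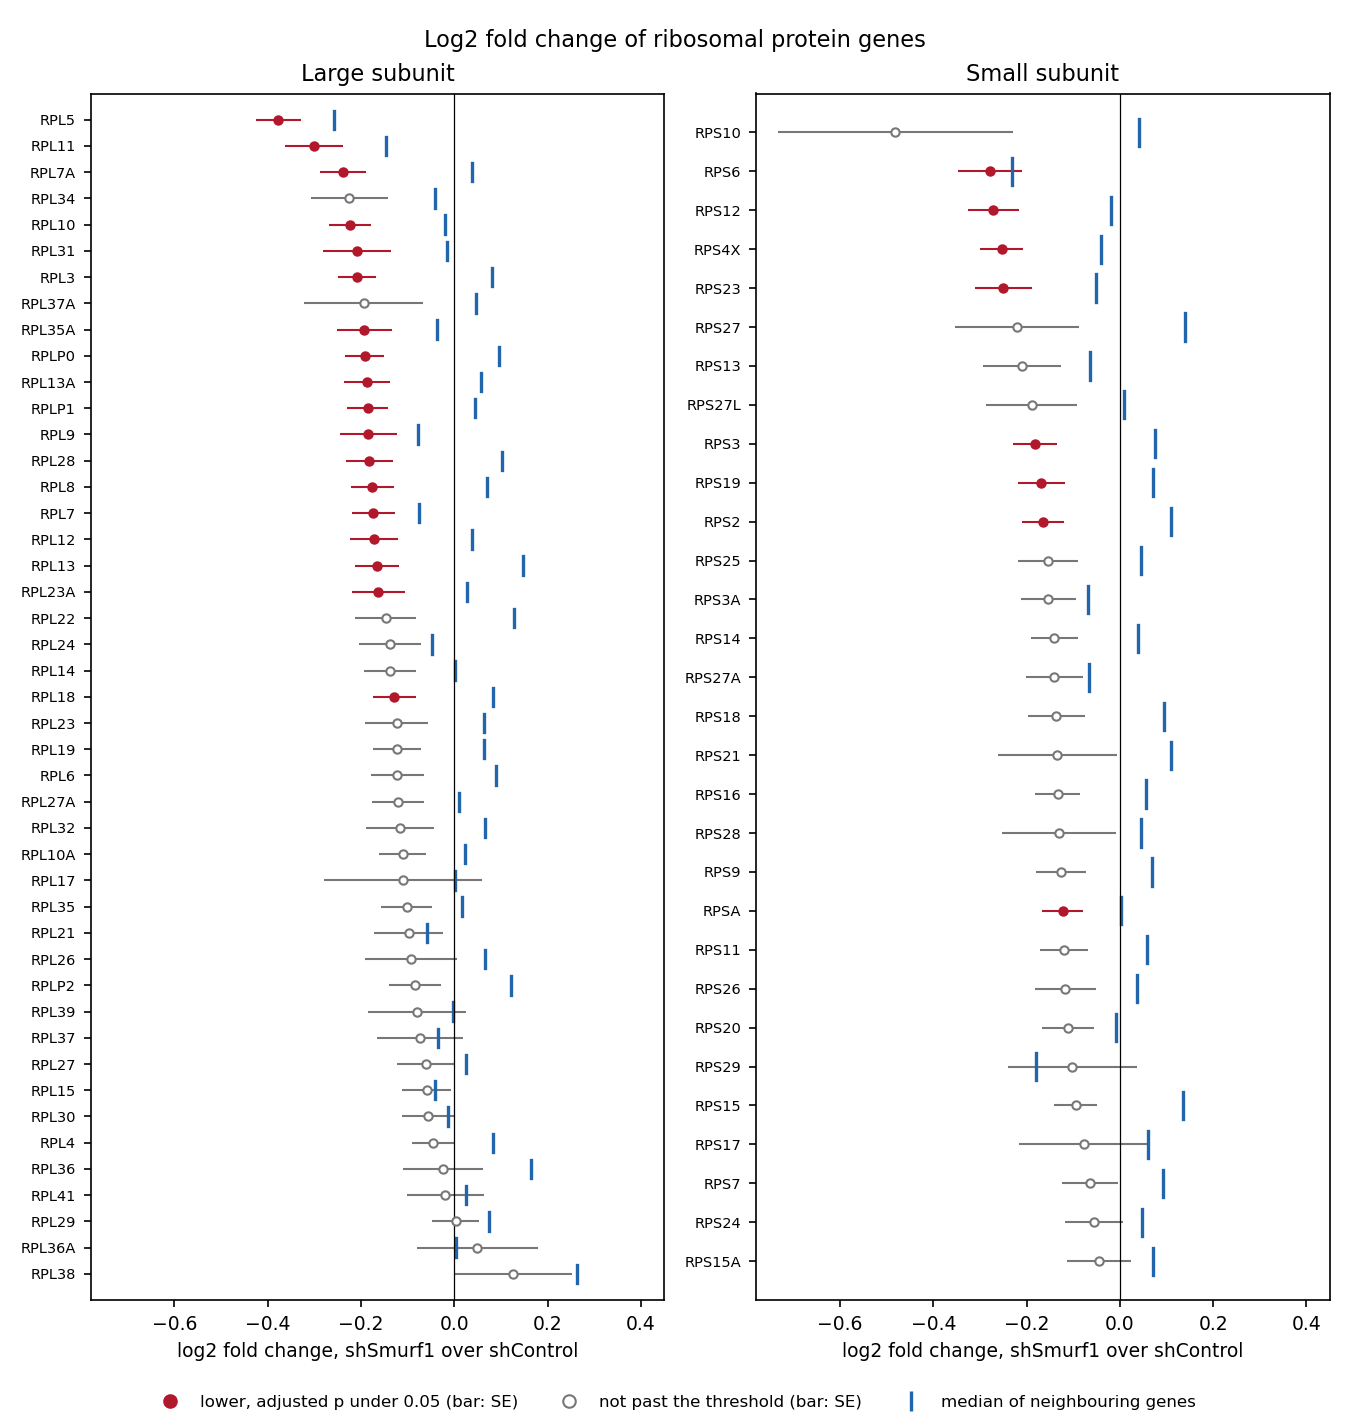
Log2 fold change of shSmurf1 over shControl for 45 large-subunit and 30 small-subunit genes, with bars for 1 SE. Filled red points passed an adjusted p of 0.05, open points did not, and blue ticks are the median log2 fold change of the 25 nearest tested genes on each side. Of the 75 points, 72 lie left of zero and 73 lie left of their tick.

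The annotated transcript starts of these genes were searched for the TOP tract. RefSeq promoter windows on GRCh38.p14, from 250 bases before to 50 bases after the start, were given for 64 of the 81 members. At the annotated start, a C followed by at least 4 more C or T was present at 1 start or more in 46 of these genes (71.9%), and in 1404 of 27305 genes of the table (5.14%). Among members lower in shSmurf1 it was present in 18 of 21, and among members that did not pass in 28 of 42. The sequences that follow were chosen after the values were seen, to set members with the larger falls beside members near zero. Each holds 15 bases before the start and 15 from the start on, 5′ to 3′ on the gene's strand, and capitals mark the pyrimidine run that begins at the start.
RPL11: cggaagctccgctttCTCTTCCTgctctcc
RPS6: aagcggaagttggccCTCTTTTCCgtggcg
RPS12: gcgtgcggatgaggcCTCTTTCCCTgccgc
RPL7A: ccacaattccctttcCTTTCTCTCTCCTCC
RPLP0: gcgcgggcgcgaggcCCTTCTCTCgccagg
RPS4X: gcagtctccagccccaatttctacgcgcac
RPL29: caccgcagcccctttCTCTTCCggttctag
RPL38: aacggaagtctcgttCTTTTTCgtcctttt

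RPL11 has a second annotated start without such a run, and the start shown lies at chr1:23691791-23691820 on the plus strand. RPS6 (chr9:19380222-19380251, minus), RPS12 (chr6:132814554-132814583, plus) and RPLP0 (chr12:120201097-120201126, minus) have runs of 9 to 10 bases, and that of RPL7A (chr9:133348203-133348232, plus) fills all 15 bases shown. RPS4X (chrX:72277234-72277263, minus) fell without a run at its annotated start. RPL29 (chr3:51995881-51995910, minus) and RPL38 (chr17:74203663-74203692, plus), with log2 fold changes of 0.00 and 0.13 that did not pass, start with runs of 7 bases. Searched on both strands of the whole window, CCGGAAG was found in 23 of the 64 members (35.9%) and in 12.2% of all genes, TATAAA in 6 (9.38%) and 14.0%, and ATGGCGGC in 5 (7.81%) and 3.67%. A match describes the letters only.

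RPL5 and RPL11 are large-subunit proteins that form a particle with the smallest ribosomal RNA, and this particle binds the p53 ligase MDM2 when ribosome assembly is disturbed. RPL5 (GRCh38 chromosome 1, 92831983 to 92841924, plus strand) had 420, 400, 438 and 415 CPM in shSmurf1 replicates 1 to 4, against 576, 544, 512 and 540 CPM in shControl replicates 1 to 4. RPL11 (GRCh38 chromosome 1, 23691742 to 23696835, plus strand) had 304, 263, 304 and 284 CPM in shSmurf1, against 396, 358, 322 and 348 CPM in shControl. Neither gene's groups overlapped, and in both genes shSmurf1 replicate 2 and shControl replicate 3 were the lowest of their groups. The log2 fold changes were −0.38 ± 0.048 SE for RPL5 (edgeR adjusted p = 1.08e-05) and −0.30 ± 0.062 SE for RPL11 (adjusted p = 0.00133).

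RPS6 is the small-subunit protein phosphorylated by the S6 kinases downstream of mTORC1. It lies on GRCh38 chromosome 9, 19375715 to 19380254, minus strand, and had 672, 664, 820 and 635 CPM in shSmurf1, against 918, 847, 763 and 857 CPM in shControl. shSmurf1 replicate 3 was above shControl replicate 3, so the groups overlapped, while the other 3 shSmurf1 libraries were below every shControl library. RPS6 had a log2 fold change of −0.28 ± 0.069 SE (edgeR adjusted p = 0.00579), and −0.36 ± 0.042 SE without shSmurf1 replicate 3.

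RPS12, a protein of the beak of the small subunit, lies on GRCh38 chromosome 6, 132814441 to 132817564, plus strand. It had 288, 264.4, 307 and 277 CPM in shSmurf1, against 368, 332, 325 and 347 CPM in shControl. The groups did not overlap, with shSmurf1 replicate 3 and shControl replicate 3 nearest to each other. RPS12 averaged 284 ± 18.3 CPM in shSmurf1 and 343 ± 19.2 CPM in shControl (SD, n = 4 each), a log2 fold change of −0.27 ± 0.055 SE (edgeR adjusted p = 0.00111).

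RPS4X, a small-subunit protein encoded on the X chromosome (GRCh38, 72255679 to 72277300, minus strand), had 734, 730, 808 and 758 CPM in shSmurf1, against 942, 890, 872 and 909 CPM in shControl. Every shSmurf1 library was below every shControl library. RPS4X averaged 758 ± 35.8 CPM in shSmurf1 and 903 ± 30.1 CPM in shControl (SD, n = 4 each), a log2 fold change of −0.25 ± 0.046 SE (edgeR adjusted p = 0.000416).

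**Figure D2:**
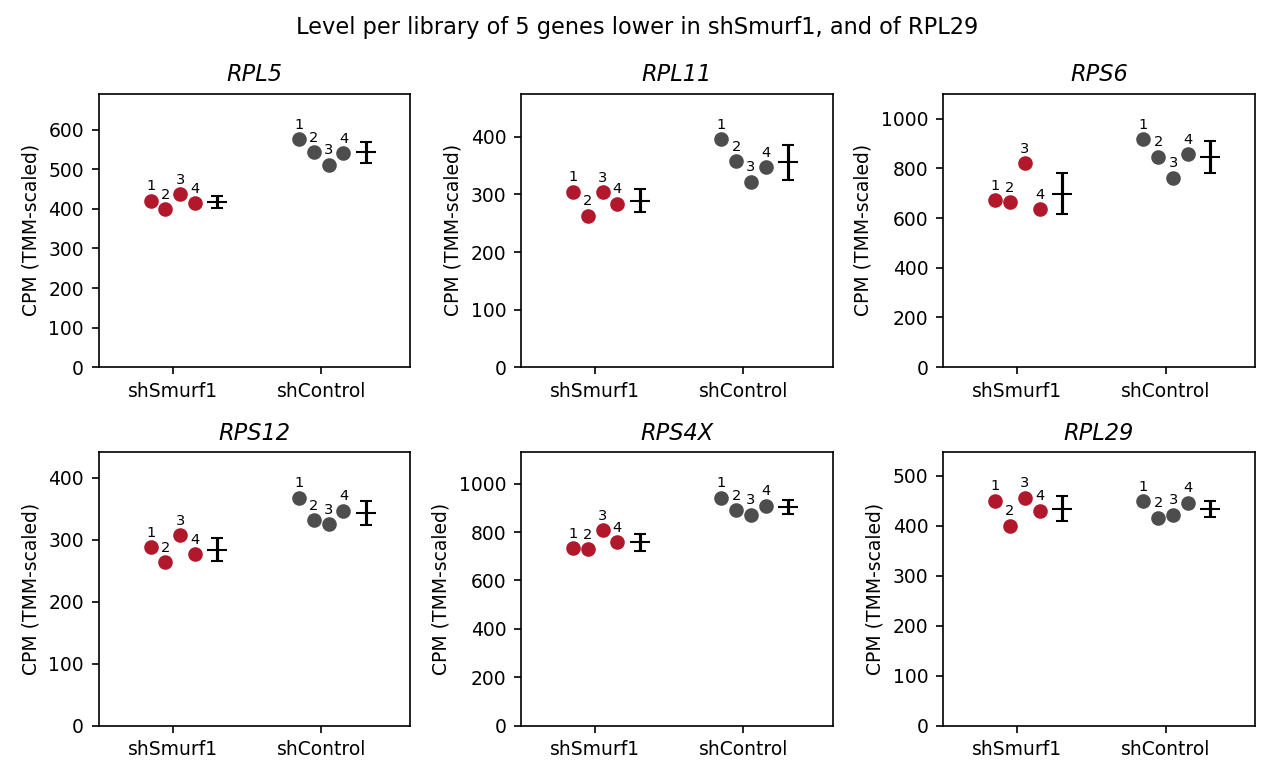
TMM-scaled CPM of RPL5, RPL11, RPS6, RPS12, RPS4X and RPL29 in each library, shSmurf1 in red and shControl in grey, with replicate numbers above the points and bars for the mean ± SD. The groups do not overlap in RPL5, RPL11, RPS12 and RPS4X, and they overlap in RPS6 and RPL29.

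RPL5, RPL11 and RPL22 lie on the short arm of chromosome 1, where neighbouring genes differed between the groups as well. For each member, the median log2 fold change of the 25 nearest tested genes on each side was taken, leaving out members and their pseudogenes. Neighbours had a median of −0.26 at RPL5, −0.15 at RPL11 and 0.13 at RPL22. Relative to their neighbours the genes lay at −0.12, −0.15 and −0.28. At RPS6 the neighbours had a median of −0.23, and relative to them the gene lay at −0.05. The neighbours spanned 21.4 Mb at RPS6, 9.14 Mb at RPL5 and 4.70 Mb at RPL11. Whether such a region changed as a whole was not tested. With the neighbours' median taken off every gene, RPS12 (edgeR adjusted p = 0.00254) and RPL22 (0.00553) passed, and RPL5 (0.0955), RPL11 (0.0947) and RPS6 (0.696) did not.

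Over the 78 members the median of the neighbours was 0.04, and 76 members lay below their neighbours, as 7860 of 15599 genes did. Relative to neighbours the median member lay at −0.18, or −0.17 for the large and −0.19 for the small subunit. On that scale 32 members were lower and 0 higher, 17 of the large and 15 of the small subunit, with 9.96% of all genes lower and 7.71% higher. Shared with the 28 were 20 genes. The 8 not shared were RPL5, RPL7, RPL9, RPL11, RPL31, RPL35A, RPS6 and RPSA.

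Besides RPL5 and RPL11, 16 genes of the large subunit fell. At or near the centre that joins amino acids, RPL3 had a log2 fold change of −0.21, RPL10, which joins late in assembly, −0.22, and RPL8 −0.18. Along the stalk that recruits elongation factors, RPLP0 had −0.19, RPLP1 −0.19 and RPL12, at the base of the stalk, −0.17. Around the exit of the peptide tunnel, RPL31 had −0.21 and RPL23A −0.16. Other members at these sites did not pass, among them RPLP2 (−0.08) in the stalk. At the exit these include RPL19 (−0.12), RPL35 (−0.10) and RPL26 (−0.09). RPL7A, at −0.24, is encoded by a gene that hosts several small nucleolar RNAs. RPL35A, one of the genes mutated in Diamond-Blackfan anaemia, had −0.19, and RPL13A, also known from a complex that silences translation after interferon-γ, had −0.19. RPL9 (−0.18), RPL28 (−0.18), RPL7 (−0.17), RPL13 (−0.17) and RPL18 (−0.13) complete the 18 of the large subunit, with adjusted p from 1.08e-05 for RPL5 to 0.0497 for RPL18. RPL9, RPL18 and RPL23A did not pass without scaling beyond the library total or with the replicate block. They also did not pass without shSmurf1 replicate 1 or 2, or shControl replicate 1 or 4. Without shControl replicate 1, RPL12, RPL13, RPL28, RPL31 and RPL35A did not pass either.

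In the small subunit RPS23, a protein of the decoding centre, had a log2 fold change of −0.25. RPS3 (−0.18) and RPS2 (−0.16) sit at the entry of the messenger RNA. RPS19, the gene most often mutated in Diamond-Blackfan anaemia, had −0.17, and RPSA, also described as a laminin receptor precursor, had −0.12. Without shControl replicate 4, RPS2, RPS19 and RPSA did not pass. RPS19 and RPSA also did not pass without shSmurf1 replicate 2 or shControl replicate 1. RPSA further did not pass with the replicate block or without scaling beyond the library total. It also did not pass with the GC trend removed plus the replicate block, or with no filter on low counts. Leaving out shSmurf1 replicate 1 or shControl replicate 2 or 3 lost the call of RPSA as well. RPS4X, RPS6 and RPS12 are described above, and the 10 small-subunit genes that fell had SE from 0.043 to 0.069.

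The subunits are set side by side as counts and medians. Of the large subunit 18 of 46 tested genes were lower (39.1%), with a median log2 fold change of −0.13 over all 46, and of the small subunit 10 of 32 (31.2%), with a median of −0.14 over all 32. Of all genes tested 12.2% were lower. Groups did not overlap in 14 large-subunit and 11 small-subunit genes, as in 13.1% of all genes in the lower direction. Genes counted as lower were 32 of the large and 21 of the small subunit without shSmurf1 replicate 3, with 17.3% of all genes lower. They were 11 and 7 without shSmurf1 replicate 2, with 9.78%, and 10 and 7 without shControl replicate 1, with 9.94%.

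Summed over the 49 large-subunit genes, levels were 20221, 18602, 20443 and 19442 CPM in shSmurf1, against 23472, 21375, 20800 and 22003 CPM in shControl. Summed over the 32 small-subunit genes, they were 13033, 12165, 13319 and 12723 CPM in shSmurf1, against 15555, 14076, 13615 and 14508 CPM in shControl. In both sums every shSmurf1 library was below every shControl library, with shSmurf1 replicate 3 and shControl replicate 3 closest. In each sum the gap between these libraries was smaller than the SD of either group. The large subunit averaged 19677 ± 835 CPM in shSmurf1 and 21912 ± 1150 CPM in shControl, or 89.8% of control, and the small subunit 12810 ± 494 CPM in shSmurf1 and 14438 ± 829 CPM in shControl, or 88.7% (SD, n = 4 each). Without scaling beyond the library total, both subunits together took 3.12% to 3.38% of the counts in shSmurf1 and 3.45% to 3.85% in shControl.

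The ratio of the large-subunit sum to the small-subunit sum was 1.551, 1.529, 1.535 and 1.528 in shSmurf1, against 1.509, 1.519, 1.528 and 1.517 in shControl. The ranges, 1.5282 to 1.5515 in shSmurf1 and 1.5090 to 1.5277 in shControl, were apart by less than the SD of either group, and the mean ratio in shSmurf1 was 101% of that in shControl. They overlapped once levels were taken per kb of exonic length (1.305 to 1.335 in shSmurf1 and 1.283 to 1.308 in shControl), with pseudogene counts added (1.540 to 1.559 in shSmurf1 and 1.522 to 1.543 in shControl), and without the members on the short arm of chromosome 1 (1.515 to 1.539 in shSmurf1 and 1.502 to 1.521 in shControl). No p was computed for a score over the members.

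**Figure D3:**
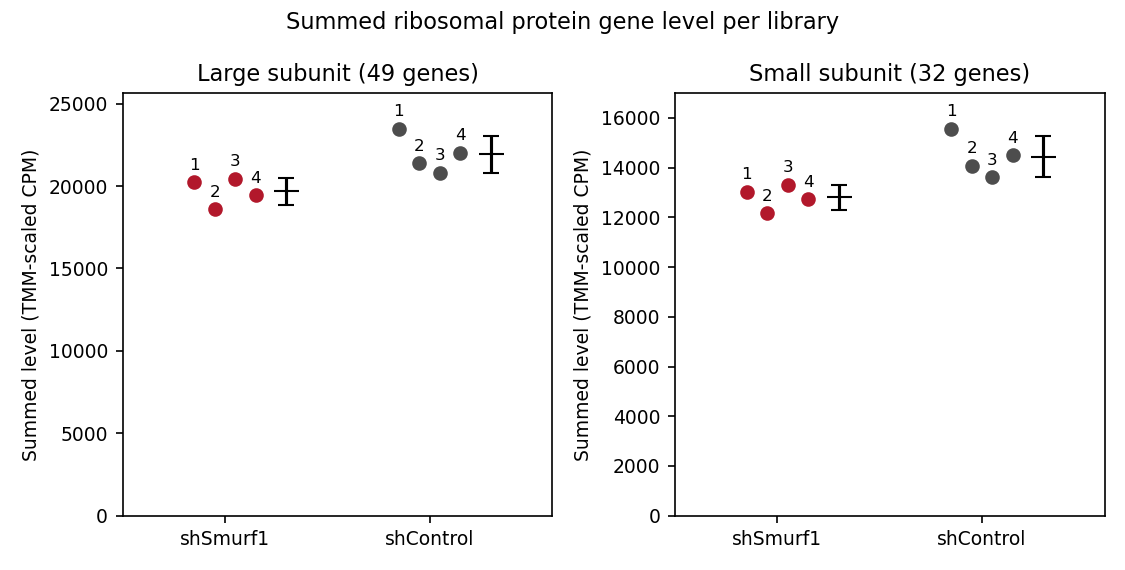
Summed TMM-scaled CPM of the 49 large-subunit genes and the 32 small-subunit genes in each library, with replicate numbers above the points and bars for the mean ± SD. In both panels the 4 shSmurf1 libraries lie below the 4 shControl libraries.

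Levels of single members spanned a wide range. Per kb of exonic length, the highest in the large subunit were RPL8 (577 CPM per kb in shSmurf1 and 652 in shControl), RPL7A (454 in shSmurf1 and 536 in shControl) and RPLP0 (413 in shSmurf1 and 472 in shControl). In the small subunit they were RPS16 (415 CPM per kb in shSmurf1 and 455 in shControl), RPS12 (371 in shSmurf1 and 447 in shControl) and RPS2 (361 in shSmurf1 and 404 in shControl). Exonic lengths of these genes include retained introns of alternative models. Per kb of coding length, a scale added after the values were seen, the order began with RPL41 (4416 CPM per kb in shSmurf1 and 4477 in shControl) in the large subunit and RPS19 (2904 in shSmurf1 and 3264 in shControl) in the small. Counts are per gene and not per coding region, so this scale can raise genes with short coding regions, 75 bases in RPL41. RPL41, with the shortest coding region of the members, had a log2 fold change of −0.02 ± 0.083 SE that did not pass.

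Members that did not pass the test include some of the most highly counted. RPS16 averaged 1080 ± 34.1 CPM in shSmurf1 and 1184 ± 77.8 CPM in shControl (edgeR adjusted p = 0.0547). RPL4, which lines the peptide tunnel, averaged 891 ± 47.9 CPM in shSmurf1 and 920 ± 26.7 CPM in shControl, a log2 fold change of −0.05 ± 0.046 SE (edgeR adjusted p = 0.532). RPL6 averaged 757 ± 63.6 CPM in shSmurf1 and 824 ± 43.7 CPM in shControl, with −0.12 ± 0.056 SE (edgeR adjusted p = 0.134). The 28 members that fell had a median SE of 0.049, close to these.

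The 3 members above zero, named after their values were seen, were RPL29 (0.00 ± 0.050 SE), RPL36A (0.05 ± 0.13 SE) and RPL38 (0.13 ± 0.13 SE). RPL29 had 449, 399, 456 and 430 CPM in shSmurf1, against 449, 416, 422 and 446 CPM in shControl. The groups overlapped over most of their range. RPL38 had 148, 103, 139 and 110 CPM in shSmurf1, against 154, 101, 91.2 and 111 CPM in shControl, and its neighbours had a median of 0.26.

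The members with an L suffix are paralogs. RPS27L, a p53 target, had 46.8, 43.1, 53.6 and 39.5 CPM in shSmurf1, against 59.1, 52.6, 42.2 and 54.6 CPM in shControl, and RPS27 had 110, 74.3, 105 and 81.5 CPM in shSmurf1, against 147, 95.2, 84.9 and 105 CPM in shControl. Groups overlapped in both, and neither passed, with log2 fold changes of −0.19 ± 0.097 SE for RPS27L (edgeR adjusted p = 0.178) and −0.22 ± 0.13 SE for RPS27 (0.264). Both have the same coding length, and per kb of it RPS27L averaged 182 CPM in shSmurf1 and 207 CPM in shControl, below RPS27 at 368 CPM in shSmurf1 and 428 CPM in shControl.

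RPL39L, known from testis, had 6, 10, 7 and 9 counts in shSmurf1 and 13, 5, 9 and 3 counts in shControl. RPL3L, known from heart and skeletal muscle, had 6, 4, 10 and 3 counts in shSmurf1 and 2, 0, 2 and 1 counts in shControl. RPL10L, also known from testis, had 0 counts in every library, which allows up to 3 counts in each. These 3 were too low to test. Their partners RPL39 (158 CPM in shSmurf1 and 167 in shControl), RPL3 (1044 in shSmurf1 and 1206 in shControl) and RPL10 (987 in shSmurf1 and 1152 in shControl) were at high levels, and of them RPL3 and RPL10 fell while RPL39, at −0.08 ± 0.10 SE, did not pass.

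Short coding regions went with a wide spread between libraries of 1 group. Of the 10 tested members with up to 300 coding bases 0 passed, although 9 lay below zero with a median of −0.12. Of these 10, 0 passed at an unadjusted p under 0.05 or by DESeq2 either, while 2 were lower without shSmurf1 replicate 3, with no filter on low counts, and with the GC trend removed plus the replicate block, and 1 without shControl replicate 3 (edgeR). Of the 46 with more than 300 and up to 600 coding bases 12 were lower, and of the 22 with more than 600, 16 were lower (72.7%). Of the other protein-coding genes tested, 10.8% were lower in the shortest class, 12.7% in the middle class and 13.9% in the longest. The median SD of log2 CPM was 0.26 in shSmurf1 and 0.29 in shControl for the shortest class, and 0.068 in shSmurf1 and 0.065 in shControl for the longest. The median SE of the log2 fold change was 0.12 for the shortest class, 0.061 for the middle class and 0.048 for the longest. The median log2 fold change was −0.13 in the middle class and −0.18 in the longest. Median levels were 141 CPM in the shortest class, 288 CPM in the middle and 799 CPM in the longest.

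The 10 shortest, RPL37, RPL37A, RPL38, RPL39, RPL41, RPS21, RPS27, RPS27L, RPS28 and RPS29, moved together from library to library. Their median deviation from the mean of their group was 0.23, −0.27, 0.21 and −0.15 on the log2 scale in shSmurf1 replicates 1 to 4, and 0.41, −0.09, −0.30 and −0.01 in shControl replicates 1 to 4. Members with more than 600 coding bases deviated by 0.08 or less at the median in every library. In 249 other protein-coding genes with up to 300 coding bases, the deviations were 0.04, −0.06, 0.06 and −0.04 in shSmurf1 and 0.07, −0.04, −0.04 and 0.01 in shControl. These have the same signs as the ribosomal protein genes of that length in 7 of 8 libraries, apart from shControl replicate 4, and smaller sizes. With the trend of each library with coding length removed, 39 members were lower, 22 of the large and 17 of the small subunit, with 12.1% of all genes lower.

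**Figure D4:**
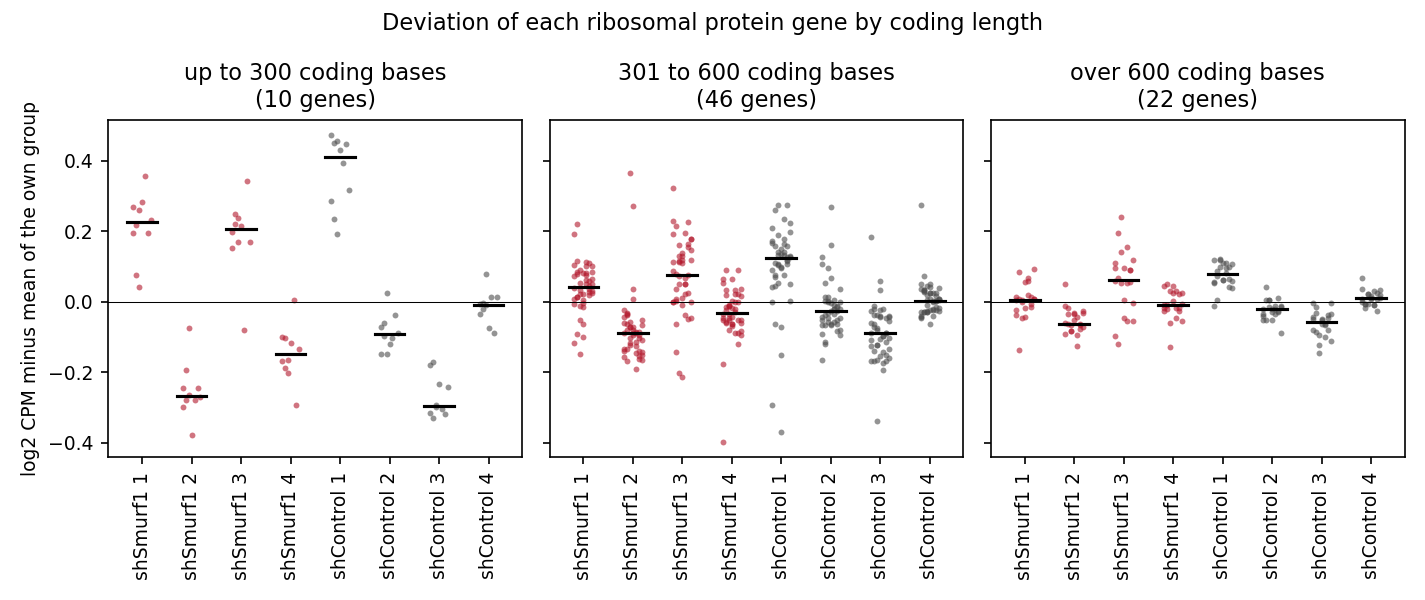
Deviation of log2 CPM from the mean of the own group for each tested ribosomal protein gene in each library, in 3 classes of coding length, with black bars for the median. In the 10 genes with up to 300 coding bases the medians run from −0.30 to 0.41, and in the 22 genes with more than 600 they run from −0.06 to 0.08.

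Reads of ribosomal protein genes can be split with their many processed pseudogenes and with overlapping genes. The table holds 1132 pseudogenes of the members, of which 428 had counts, and these made up 3.94% of the counts of members and pseudogenes together. The share was highest for RPS10 (52.1%), RPS28 (50.7%) and RPL9 (39.3%), and these levels are uncertain. RPS10 averaged 1.59 CPM in shSmurf1 and 2.22 CPM in shControl and did not pass (log2 fold change −0.48 ± 0.25 SE). Its exons overlap those of the readthrough gene RPS10-NUDT3 by 39.4%. RPL17, at 4.76 CPM in shSmurf1 and 5.15 CPM in shControl, and RPL36A, at 6.56 CPM in shSmurf1 and 6.35 CPM in shControl, also share exons with readthrough genes. Exons of 29 of the 81 members overlap a gene on the opposite strand, among them 9 of the 28 that fell, and without strand the 2 cannot be told apart. RPL10 shares 34.2% of its exonic length with DNASE1L1.

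Other genes of the ribosome pathway were read from 8 lists with 136 genes in all. Of the 134 tested, 6 rose (4.48%) and 17 fell (12.7%), while 10.3% of all genes tested were higher and 12.2% lower. In this fit the share that fell was near that of all genes. Without shSmurf1 replicate 3 the counts were 16 higher and 39 lower, with 16.4% of all genes higher and 17.3% lower. Without shControl replicate 1 they were 3 and 10 (7.77% and 9.94% of all genes). Without shSmurf1 replicate 2 they were 4 and 11 (7.98% and 9.78%), and without shControl replicate 4 they were 2 and 11 (7.88% and 9.86%). The share that fell was above that of all genes in the first of these settings and below it in the others. Leaving out shSmurf1 replicate 4 left 1 that rose, and leaving out shSmurf1 replicate 1 or shControl replicate 2 or 3 left 3. In these fits 7.64% to 8.12% of all genes were higher.

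Of 3 ribosomal proteins with names outside the rule, 1 fell. FAU, a fusion of a ubiquitin-like protein with a small-subunit protein, had 135, 123, 109 and 124.6 CPM in shSmurf1, against 183, 154, 162 and 169 CPM in shControl. Its groups did not overlap, and its log2 fold change of −0.44 ± 0.065 SE (edgeR adjusted p = 4.92e-05) lay beside neighbours with a median of 0.04. RACK1, a scaffold protein of the small subunit, had −0.08 ± 0.041 SE and did not pass. Of 4 paralogs outside the rule, RPL22L1 fell, with a log2 fold change of −0.36 ± 0.090 SE, and its neighbours had a median of −0.18, with which removed it did not pass. The median of the 4 was −0.14.

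Transcripts known to carry a TOP tract outside the ribosome showed 4 of 19 tested lower (21.1%) and 0 higher, beside 12.2% of all genes lower and 10.3% higher, with a median log2 fold change of −0.08. PABPC1, the poly(A)-binding protein, had −0.29 ± 0.047 SE, EIF4A2, a helicase of translation initiation, had −0.27 ± 0.051 SE, and EEF1A1, the elongation factor, had −0.20 ± 0.045 SE. EEF1A1 averaged 7839 ± 539 CPM in shSmurf1 and 9005 ± 204 CPM in shControl, with no overlap. All 3 passed in the 23 other settings.

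Of 52 assembly factors tested, 6 were lower (11.5%) and 2 higher (3.85%), shares no larger than the 12.2% and 10.3% of all genes, with a median of −0.05. NMD3, the export adaptor of the large subunit, had a log2 fold change of −0.32 ± 0.064 SE, with neighbours at −0.18, and did not pass with the neighbours' median removed. RRP9, a protein of the U3 small nucleolar particle, had −0.22 ± 0.077 SE, and MDN1, an ATPase that remodels large-subunit precursors, had 0.22 ± 0.062 SE. RRP9 did not pass in 12 of the 23 other settings, among them the replicate block and leaving out any 1 library. MDN1 did not pass without shSmurf1 replicate 4, shControl replicate 1 or shControl replicate 4. Of 15 RNA polymerase I genes 1 was lower, POLR1E (−0.19 ± 0.069 SE), and the median was 0.03. POLR1E did not pass in 12 of the 23 other settings, among them the replicate block and leaving out any 1 library other than shSmurf1 replicate 3. Of 11 dedicated chaperones and importins of ribosomal proteins, BCCIP was higher (0.22 ± 0.057 SE) and IPO5 lower (−0.19 ± 0.050 SE), with a median of 0.05.

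Of 17 tested genes of mTORC1 and LARP1, 3 were lower (17.6%) and 1 higher (5.88%), beside 12.2% and 10.3% of all genes, with a median of −0.10. EIF4EBP1, an inhibitor of cap-dependent translation that mTORC1 phosphorylates, had 113, 108, 106 and 119 CPM in shSmurf1, against 167, 161, 161 and 176 CPM in shControl. The groups did not overlap, and the log2 fold change was −0.57 ± 0.054 SE (edgeR adjusted p = 2.16e-07). Its relative EIF4EBP2 had −0.33 ± 0.046 SE, and RHEB, the GTPase that activates mTORC1, had −0.35 ± 0.065 SE with neighbours at −0.22 and did not pass with the neighbours' median removed. Of 14 ribosome quality control genes 2 were higher (14.3%) and 0 lower, with a median of −0.03: UBE2O, a ligase for unassembled ribosomal proteins, at 0.23 ± 0.066 SE with neighbours at 0.39, and USP10, a deubiquitinase of small-subunit proteins, at 0.19 ± 0.065 SE. UBE2O did not pass in 6 of the 23 other settings and USP10 in 7, among them leaving out shControl replicate 2 or 4 or shSmurf1 replicate 4 for both, and also shSmurf1 replicate 1 or shControl replicate 1 for UBE2O and shSmurf1 replicate 2 or shControl replicate 3 for USP10.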

How the data were processed

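The authors deposited 1 table of raw, whole-number gene counts for 8 libraries, not normalized. The tools listed in the submitters' processing notes are featureCounts 1.5.0-p3, HISAT2 2.0.5, fastp and CASAVA. Per the labels' protocols, polyadenylated RNA was primed with random hexamers and no step marks the strand. The sources used here give neither counting options nor genome build. All 58735 identifiers were found in GENCODE release 29 on GRCh38, the source of symbols, coordinates, lengths and GC content.

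Genes were kept by filterByExpr with a minimum count of 10 and tested with edgeR's quasi-likelihood test (edgeR version 4.0.16, R version 4.3.3), two-sided, TMM-scaled, without covariates, with Benjamini-Hochberg adjustment over 15647 genes and a threshold of 0.05. SE was taken as the absolute log2 fold change over the square root of F. The script was tested on simulated data. Other settings used DESeq2 version 1.42.0, limma-voom (limma version 3.58.1), other scalings and filters, GC and length trends (lowess span 0.3), the replicate number as a block, added pseudogene counts and leaving out each library. Added after seeing the data were removal of the neighbours' median or the coding length trend, GC removal without shSmurf1 replicate 3, and the subunit ratio without members on the short arm of chromosome 1.

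The members and lists were chosen with earlier results of these data known. Named with values are all members past the threshold, per library those with the largest falls, the 3 highest per kb in each subunit, the L-suffix paralogs with their partners, RPL5, RPL11, RPS6, the 3 members with the highest CPM that did not pass, untested members, and up to 3 changed genes per list. Some genes selected by this rule are not reported here. Other genes were named after their values were seen. Library totals ranged from 14688651 to 17030394 counts, and floors from counts of 0 cover counting error only.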

Additional observations from a re-analysis of the deposited data

Results flagged for a closer look

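Of 124 groups of 4 libraries looked at, 4 had 1 library far from the other 3 by Dixon's criterion, and chance gives such a library in about 1 of 20 groups. In PABPC1, shSmurf1 replicate 3 was at 1255 CPM, with the other shSmurf1 libraries at 1102 to 1120 CPM. In RPL22 the same library was at 137 CPM, with the others at 111 to 113 CPM, and in RPL9 it was at 216 CPM, with the others at 185 to 186 CPM. In RPS23, shControl replicate 1 was at 129 CPM, with the other shControl libraries at 146 to 150 CPM. RPS23 is one of the members in which that library was not the highest of its group.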

How the results depend on the processing

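Under all 23 other settings 0 members were higher and the median log2 fold change of both subunits was below zero. Members counted as lower ranged from 17 to 53 when 1 library was left out, from 10 to 32 in the large and from 7 to 21 in the small subunit. In the same fits 9.72% to 17.3% of all genes were lower. With the GC trend removed and the replicate block 43 members were lower, with 15% of all genes. With the GC trend removed without shSmurf1 replicate 3 they were 49, 29 of the large and 20 of the small subunit, with 15.2% of all genes. Small-subunit genes counted as lower were 18 with the GC trend removed, 19 with that and the replicate block, 16 with the exonic length trend removed and 17 with the coding length trend removed. In these settings, in that order, 15.1%, 15%, 12.2% and 12.1% of all genes were lower. The correlation of same-numbered libraries between the groups ran from −0.067 to 0.032, and that of differently numbered libraries from −0.062 to 0.077. No sign of pairing by number was seen, and a shared batch was not tested. The replicate block alone gave 25 lower members, with 11.3% of all genes lower. Leaving out 1 library gave 1216 to 2601 of all genes higher and 1547 to 2747 lower, median log2 fold changes of −0.17 to −0.094 in the large and −0.19 to −0.096 in the small subunit, sums of 88.3% to 92.0% and 87.1% to 91.1% of control, and a ratio of 100.8% to 101.4% of control, which was 102% per kb of exonic length and 101% without it. Other pathway genes counted as higher were 1 to 16 with 1 library left out, with 7.64% to 16.4% of all genes higher. With the neighbours' median removed they were 2, with 7.71% of all genes higher. Pathway genes counted as lower were 10 to 39 with 1 library left out, with 9.72% to 17.3% of all genes lower. They were 11 with the replicate block (11.3% of all genes) and 26 with GC removal without shSmurf1 replicate 3 (15.2%). For these counts the cause was not tested.

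Signs turned in members near zero. RPL29 had −0.043 with the GC trend removed, −0.046 with that and the replicate block, −0.030 and −0.0039 with the exonic and coding length trends removed, −0.072 relative to neighbours, −0.10 with GC removal without shSmurf1 replicate 3, −0.0025 with pseudogene counts, and −0.021 to 0.039 with 1 library left out. Relative to neighbours RPL38 had −0.14, RPS29 0.078 and UBE2O −0.16. RPL41 had 0.0021 without scaling, and with 1 library left out RPL41 ran from −0.096 to 0.063, RPL39 from −0.16 to 0.036 and RPS29 from −0.22 to 0.070. Among 59 named genes, 1197 values kept their direction and side of the threshold, 109 no longer passed, 30 passed newly and 21 changed sign. Of 16 named pathway genes 8 passed in every setting, and POLR1E and RRP9 lost the call in 12 each. Low counts limit RPS10, RPL17, RPL36A and the 3 untested members most, and why these counts are low was not tested.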
